A study of Homo sapiens with 4 samples.

Results

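The genes described here are 10 that act in blood clotting or in complement: F3, TFPI, TFPI2 and THBD for clotting, and C1R, C1S, C3, CFB, CD55 and SERPING1 for complement. They were taken by symbol from the 43714 genes of the count table, and all 10 were found there. RNA was sequenced from MDA-MB-231, an established human triple-negative breast cancer line that the labels class as mesenchymal. The reporter-negative line (MDA-MB-2317TGP-NEG, 2 libraries) and the reporter-positive line (MDA-MB-2317TGP-POS, 2 libraries) both carry the stably transfected 7TGP vector, in which 7 TCF sites drive EGFP when beta-catenin acts with TCF/LEF factors. Both were selected with 3 μg/mL puromycin and grown in DMEM with 10% FBS. They were parted by 8 rounds of sorting and expansion, to over 95% EGFP-negative and over 80% EGFP-positive cells, and are called the EGFP-negative and EGFP-positive lines below. Each state is 1 sorted line, so whatever else sets the lines apart cannot be told apart from the reporter. No label ties the 2 libraries of a line to separate cultures, and the p-values therefore measure spread between libraries that may be technical. In bulk RNA, fewer cells with a transcript and less transcript per cell cannot be told apart.

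Clotting outside a vessel begins when tissue factor, the membrane protein encoded by F3, binds factor VII and the pair activates factor X. Many tumour cells carry tissue factor, and its complex with factor VII also cleaves protease-activated receptors and so acts as a signal to the cell. Complement is a cascade of plasma proteases that meets at C3, and the cells' own surfaces are shielded from it by membrane regulators such as CD55. The liver is the main source of most plasma complement and clotting proteins, but many other cells make some of them.

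Each library held 55894092 to 63034563 counts. Values below are CPM, counts scaled to a common library total, after TMM scaling, and a gene is said to rise or fall only if edgeR's quasi-likelihood test gave an adjusted p (Benjamini-Hochberg) under 0.05 over all 30952 genes tested. The line itself showed high VIM, at 2670 CPM in the EGFP-negative and 1300 CPM in the EGFP-positive line, and little PGR, CDH1 or ESR1, whose means were at most 5.78 CPM. Hepatocyte markers were near absent: 5 of 7 were in the table and summed to 0.787 to 0.847 CPM in the EGFP-negative and 0.783 to 0.939 CPM in the EGFP-positive libraries, with ALB at 4 to 7 counts. None of the 2 tested hepatocyte markers passed. Monocyte and macrophage markers summed to 152 to 156 and 147 to 158 CPM, nearly all of it CSF1R, with none of 5 tested passing. Endothelial markers summed to 135 to 153 and 128 to 152 CPM, and 1 of 7, KDR, rose. Of the remaining marker lists, 3 of 7 breast epithelial markers and 1 of 5 mesenchymal markers fell, 1 of 6 fibroblast markers (LUM) rose and 1 of 3 tested platelet markers (GP1BA) fell. The breast epithelial list summed to 427 to 437 CPM in the EGFP-negative libraries and to 329 to 353 CPM in the EGFP-positive ones. Nearly all of this came from ERBB2, EPCAM, KRT8 and KRT18, so not all epithelial markers were low. The mesenchymal list summed to 3437 to 3531 and 2021 to 2182 CPM. The part of these markers in the results was not tested.

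Across the 10 genes, 7 rose, 2 fell and TFPI did not pass (edgeR). Over all genes tested, 22.4% were called, 11.6% as higher and 10.9% as lower. C3 rose 5.86-fold, SERPING1 rose 17.1-fold from a very low level, and F3 rose 2.30-fold. TFPI2, C1S, THBD and C1R rose by 1.25-fold to 1.62-fold, and CFB and CD55 fell by 0.23 and 0.25 on the log2 scale. The median log2 fold change of the 10 genes was 0.56, beside -0.0046 for all genes tested. The 10 genes were chosen with earlier results of these data known, and SERPING1 entered the test in a way that it had to differ. Their calls and median therefore describe these genes and are no test of them as a set. The libraries of the lines did not overlap for any of the 10 genes, which was also the case for 57.7% of all genes tested. The share of higher genes among all calls was 51.5% under TMM and 36.0% under total count scaling.

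**Figure D1:**
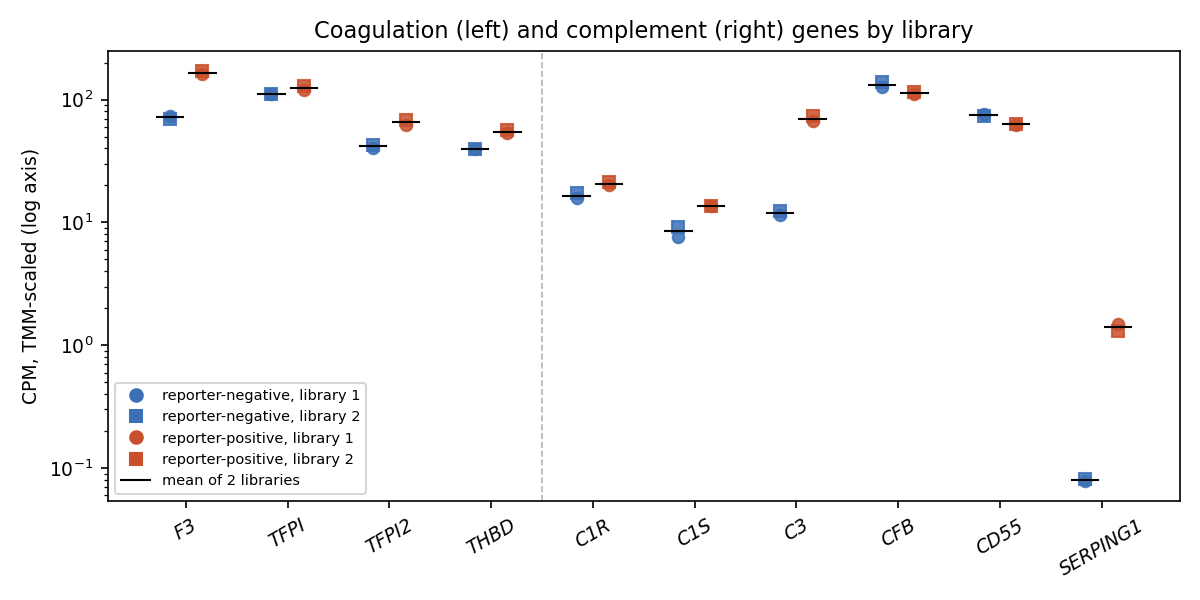
TMM-scaled CPM (log axis) of each of the 10 genes in the 4 libraries, with clotting genes left and complement genes right of the dashed line. Points are libraries and short lines are means of 2; F3, C3 and SERPING1 show the widest gaps between the lines, and SERPING1 stays under 2 CPM in all 4 libraries.

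F3 encodes tissue factor, the receptor and cofactor of factor VII. Its gene (ENSG00000117525) lies on chromosome 1 at 94529225 to 94541800 of GRCh38, and no other listed gene overlaps it. F3 was at 73.4 and 70.1 CPM in the EGFP-negative and at 160.3 and 170.2 CPM in the EGFP-positive libraries. Both EGFP-positive libraries were thus more than 2-fold above either EGFP-negative one. The means were 71.8 ± 2.31 and 165 ± 6.96 CPM (SD, n = 2), a log2 fold change of 1.20, standard error 0.07 (edgeR, adjusted p = 1.47e-10). Of 13235 tested genes that reached 10 CPM in either line, 144 had a larger log2 fold change than F3.

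The F3 and TFPI2 promoters are shown because both genes rose and both promoters carry a match to the AP-1 motif, the site of FOS and JUN dimers. Since they were picked by outcome and by match, the shares of promoters given below are no test of AP-1. C1R, the other gene that rose and had a promoter, held no AP-1 match. Of the 10 genes, 6 had a promoter in the RefSeq table (GRCh38.p14), and THBD, C3, C1S and SERPING1 did not. The printed stretches are the 250 bases before each RefSeq start, chr1:94541760-94542009 for F3 and chr7:93890754-93891003 for TFPI2, both on the reverse strand and written 5′ to 3′. Capitals mark matches on either strand to AP-1 (TGANTCA), to the Sp1 GC box (GGGCGG) and, in TFPI2, to the NF-kappaB motif (GGGRNNYYCC). In these patterns N is any base, R is A or G and Y is C or T. The F3 stretch held no match to this NF-kappaB pattern, and sites that depart from a pattern are not found by the search.
F3: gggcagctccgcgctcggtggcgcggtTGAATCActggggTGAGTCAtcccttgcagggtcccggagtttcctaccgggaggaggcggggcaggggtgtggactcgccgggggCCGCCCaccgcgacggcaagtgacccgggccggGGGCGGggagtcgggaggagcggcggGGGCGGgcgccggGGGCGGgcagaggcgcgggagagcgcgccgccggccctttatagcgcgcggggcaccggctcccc
TFPI2: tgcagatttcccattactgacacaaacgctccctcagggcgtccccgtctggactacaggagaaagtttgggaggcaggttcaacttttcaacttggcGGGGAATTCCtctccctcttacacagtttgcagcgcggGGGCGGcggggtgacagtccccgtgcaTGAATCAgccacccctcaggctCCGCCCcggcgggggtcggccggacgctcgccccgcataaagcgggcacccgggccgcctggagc

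The F3 stretch held 2 AP-1 matches, starting 223 and 210 bases before the start, and 4 GC boxes, starting 137, 104, 78 and 65 bases before it. In TFPI2 a single AP-1 match started 87 bases, an NF-kappaB match 152 bases and the GC boxes 114 and 65 bases before the start. None of these matches overlapped another. Of 35116 promoters of the same length, 6.57% held an AP-1 match, 0.402% held 2 or more, 9.96% held an NF-kappaB match and 42.6% a GC box. Searches for TCF/LEF (CTTTGAT, in 2.26% of promoters), TEAD (GGAATG, in 11.9%) and the STAT site GAS (TTCNNNGAA, in 6.57%) found no match in either stretch. In the other promoters, CFB held an NF-kappaB and a GAS match, CD55 a GC box, and C1R 3 TEAD matches before one start and a GAS match before another; TFPI held none. A match is a run of letters only, and no binding was measured.

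TFPI encodes tissue factor pathway inhibitor, a Kunitz-type protein that blocks the complex of tissue factor and factor VII once factor X is bound. It was at 111 and 111 CPM in EGFP-negative libraries and 119 and 129.6 CPM in EGFP-positive ones. The EGFP-positive libraries were higher, but TFPI did not pass (log2 fold change 0.16, standard error 0.07; edgeR, adjusted p = 0.128). Without the EGFP-positive library numbered 1 it passed (edgeR, adjusted p = 7.50e-04). CALCRL-AS1, on the opposite strand, shares most of the span of TFPI, and its counts came to 101% of those of TFPI, so reads of the pair cannot be told apart.

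TFPI2 is a relative of TFPI that is deposited in the matrix and inhibits plasmin and other trypsin-like proteases more than the tissue factor complex. It was at 40.5 and 42.9 CPM in EGFP-negative libraries and 62.2 and 68.1 CPM in EGFP-positive ones. That is a 1.56-fold rise, with a standard error of 0.07 on a log2 fold change of 0.64 (edgeR, adjusted p = 1.60e-06). TFPI2 lies within the span of GNGT1, a G protein subunit gene on the other strand. With the TFPI2 counts taken off, GNGT1 kept 10.3 and 10.2 CPM in the EGFP-negative and 15.6 and 15.96 CPM in the EGFP-positive libraries. The remainder was thus also higher in both EGFP-positive libraries, so the rise at this place was not confined to counts within TFPI2.

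THBD encodes thrombomodulin, a membrane receptor that turns thrombin from a clotting enzyme into an activator of protein C. Its single-exon gene overlaps no other listed gene. THBD was at 39.3 and 39.4 CPM in EGFP-negative libraries and 53.3 and 56.2 CPM in EGFP-positive ones, a 1.39-fold rise (log2 fold change 0.48, standard error 0.07; edgeR, adjusted p = 4.17e-05). Counts of F3 per count of TFPI were 0.658 and 0.634 in the EGFP-negative and 1.35 and 1.31 in the EGFP-positive libraries. F3 counts per count of THBD went from 1.87 and 1.78 to 3.01 and 3.03. The ratio of the initiator to each of these 2 genes was thus higher in both EGFP-positive libraries, as a description of the same counts and with no test of its own.

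**Figure D2:**
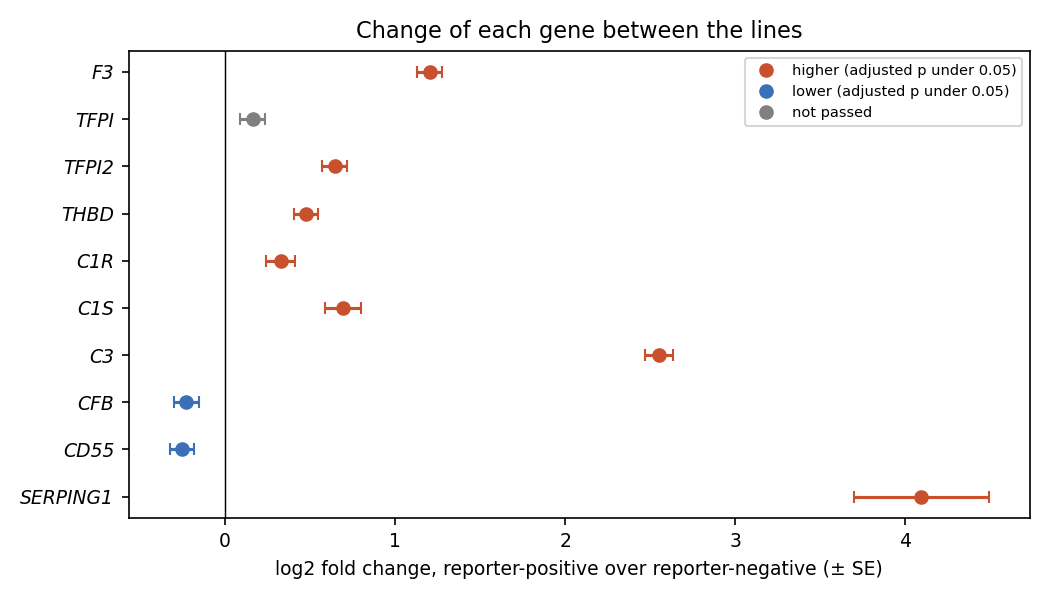
Log2 fold change of each gene, EGFP-positive over EGFP-negative, with bars of 1 standard error from the edgeR fit over 4 libraries. SERPING1 at 4.09, C3 at 2.55 and F3 at 1.20 lie farthest to the right, and CFB and CD55 lie left of 0.

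Further clotting genes moved both ways. Of 38 on the list, 29 were tested: 7 rose, 4 fell and 18 did not pass, with a median log2 fold change of -0.012 beside -0.0046 for all genes. Over all genes tested, 11.6% were called higher and 10.9% lower. All 4 protease-activated receptor genes on the list rose, beside 11.6% of all genes tested. They are grouped here after their values were seen, and F2R and F2RL2 lie close together on chromosome 5. These receptors are cut open by clotting enzymes and then signal through G proteins. F2RL1, which encodes the receptor that the tissue factor complex can cleave, was at 106 and 111 CPM in EGFP-negative libraries and 188 and 224 CPM in EGFP-positive ones, a 1.90-fold rise (edgeR, adjusted p = 9.65e-08). F2R encodes the main thrombin receptor and rose 1.39-fold, its mean going from 51.8 ± 0.618 CPM up to 71.9 ± 7.90 CPM (SD, n = 2).

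F2RL2, which encodes a thrombin-binding receptor that aids others of the family, had 54 and 74 counts in the EGFP-negative and 475 and 403 in the EGFP-positive libraries. That is a 7.42-fold rise (edgeR, adjusted p = 1.31e-10). F2RL2 lies inside IQGAP2, a scaffold gene on the other strand, and IQGAP2 less F2RL2 stood at 2.03 and 2.90 CPM in EGFP-negative libraries and 2.17 and 2.27 CPM in EGFP-positive ones. These remainders overlapped between the lines, so the counts that changed lay within F2RL2. F2RL3, a further thrombin receptor gene, rose from 0.679 to 1.30 CPM (edgeR, adjusted p = 0.0156), but did not pass with DESeq2 (adjusted p = 0.0806) or without the EGFP-negative library numbered 2 (edgeR, adjusted p = 0.110).

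SERPINE2, a cell-surface thrombin inhibitor gene, rose 1.69-fold, from 22.3 and 20.9 CPM to 36.1 and 36.7 CPM. LMAN1, which encodes a cargo receptor that carries factors V and VIII out of the endoplasmic reticulum, rose 1.38-fold, from 139 to 192 CPM. P4HB, the protein disulphide isomerase gene, rose 1.31-fold, and its antisense neighbour ENSG00000262831 had 32.9% as many counts. The P4HB call was lost without either EGFP-negative library (edgeR, adjusted p = 0.0712 without number 1 and 0.148 without number 2).

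PROCR, the receptor that presents protein C to thrombomodulin, fell by 0.38 on the log2 scale, from 26.2 and 26.7 CPM to 20.4 and 20.2 CPM. MMP24OS on the other strand had 218% as many counts and fell as well, by 0.37, and the antisense gene ENSG00000278367 had 23.5% as many. GGCX encodes the vitamin K-dependent carboxylase that finishes several clotting factors. It fell by 0.41, from 169 to 128 CPM, and shares 558 bases with MAT2A, which had 154% as many counts and did not pass (edgeR, adjusted p = 0.0922). ANXA5, a phosphatidylserine-binding annexin gene, fell by 0.33, and A2M, a broad protease inhibitor gene, fell by 0.98 from 1.01 CPM. The ANXA5 call was lost without either EGFP-negative library (edgeR, adjusted p = 0.120 and 0.112). The A2M call was lost with DESeq2 (adjusted p = 0.150), with total count scaling (edgeR, adjusted p = 0.0602), without the EGFP-negative library numbered 1 (0.178) and without the EGFP-positive library numbered 2 (0.307), where its log2 fold change was -0.57. A2M also overlaps A2M-AS1, which had 40.1% as many counts: 36 and 32 in the EGFP-negative and 2 and 5 in the EGFP-positive libraries. A2M-AS1 entered the test through its EGFP-negative counts alone and had to differ.

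MCFD2, the partner of LMAN1, was at 300.3 and 267 CPM, GAS6, a vitamin K-dependent ligand gene, at 268 and 264 CPM, and the protein S gene PROS1 at 44.9 and 44.6 CPM in EGFP-negative and EGFP-positive cells. None of these 3 passed. MCFD2 overlaps ENSG00000228925 (92.6% as many counts) and TTC7A (16.1%), and GAS6 overlaps GAS6-AS1 (80.5%). MCFD2 passed as lower with total count scaling and without the EGFP-positive library numbered 2 (edgeR, adjusted p = 0.00941 and 9.92e-05). The factor VII gene F7 had 1 to 5 counts per library and was too low to test, and the prothrombin gene F2 had 12 to 15.

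**Figure D3:**
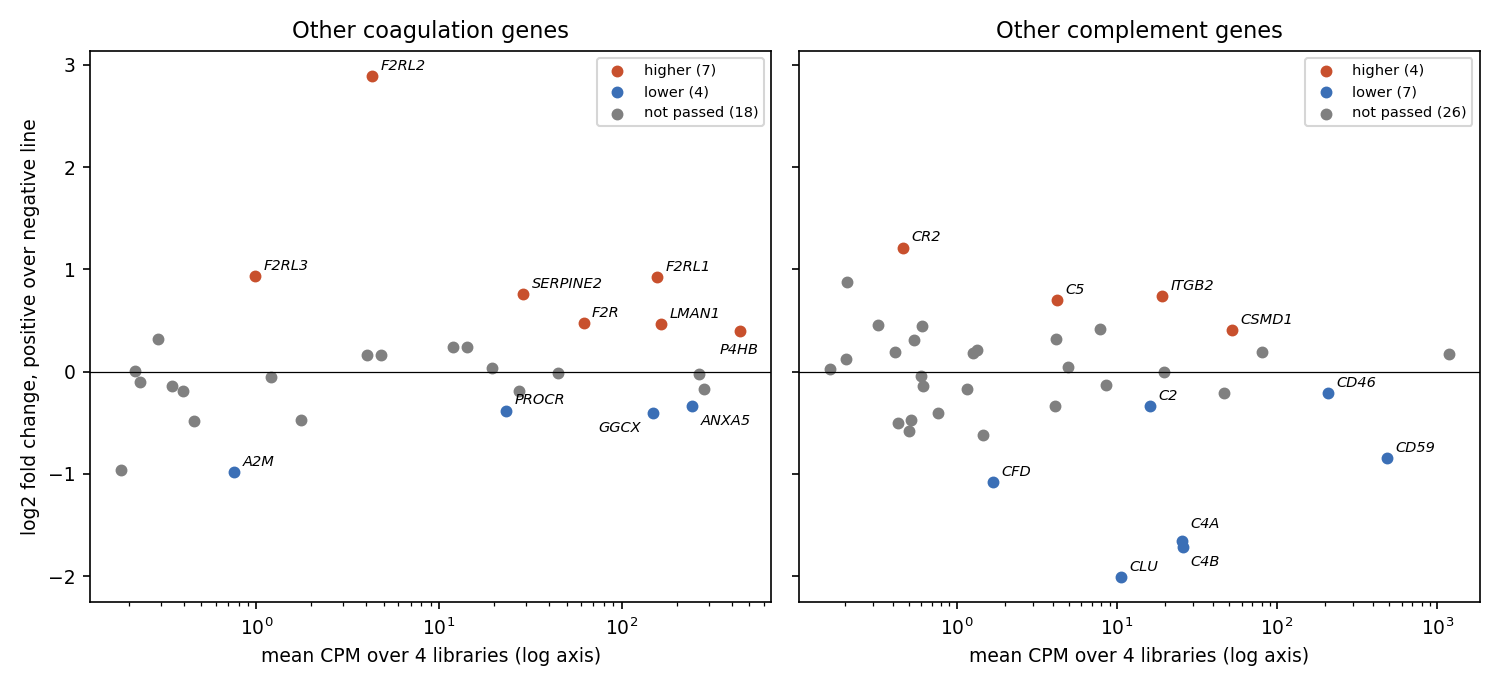
Log2 fold change (EGFP-positive over EGFP-negative) against mean CPM over 4 libraries (log axis) for the 29 tested clotting genes and 37 of the 40 tested complement genes outside the 10. Named points passed the test; F2RL2 stands highest, and CLU, C4A and C4B lowest.

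In the complement cascade, C1R and C1S encode the paired proteases of the C1 complex, in which C1r activates C1s and C1s cuts C4 and C2. They lie close together on chromosome 12. C1S was at 7.65 and 9.23 CPM in EGFP-negative libraries and 13.7 and 13.7 CPM in EGFP-positive ones, a 1.62-fold rise (log2 fold change 0.70, standard error 0.11; edgeR, adjusted p = 4.67e-05). The EGFP-negative libraries differed more from each other than the EGFP-positive ones. The annotated span of C1S overlaps EMG1 and LPCAT3, which had 256% and 176% as many counts and did not pass (log2 fold changes -0.05 and -0.05), so any part of the C1S counts may come from them.

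C1R was at 15.8 and 17.3 CPM in EGFP-negative libraries and 19.999 and 21.5 CPM in EGFP-positive ones. Its 1.25-fold rise (log2 fold change 0.33, standard error 0.09; edgeR, adjusted p = 0.00764) was lost without the EGFP-negative library numbered 1 (adjusted p = 0.181) and with total count scaling (adjusted p = 0.0914). C1RL, a related protease gene that shares 3021 bases with C1R, stood at 19.6 and 19.5 CPM and did not pass.

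C3 encodes the central component, whose cleavage coats targets with C3b and feeds every later step. It lies on chromosome 19 at 6677704 to 6730562 of GRCh38. C3 had 729 and 764 counts (11.5 and 12.4 CPM) in the EGFP-negative and 4205 and 3843 counts (67.0 and 73.3 CPM) in the EGFP-positive libraries. The lines lay far apart relative to the spread within each, with means of 11.96 ± 0.677 and 70.2 ± 4.52 CPM (SD, n = 2). The log2 fold change was 2.55, standard error 0.08 (edgeR, adjusted p = 5.07e-15). Among the 13235 tested genes that reached 10 CPM in either line, 45 had a larger one. C3 shares 649 bases with GPR108, which stood at 48.6 and 48.5 CPM in the 2 lines. With every GPR108 count taken off, the EGFP-positive libraries would keep 14.6 and 28.6 CPM of C3, still above the full 11.5 and 12.4 CPM of the EGFP-negative ones.

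CFB encodes factor B, the protease that joins C3b to form the alternative pathway's convertase. It was at 126 and 138 CPM in EGFP-negative libraries and 111 and 115 CPM in EGFP-positive ones, and fell by 0.23 on the log2 scale (standard error 0.07; edgeR, adjusted p = 0.0301). The gap between the nearest libraries of the lines was about as wide as that between the EGFP-negative libraries. The call was lost without either EGFP-negative library (adjusted p = 0.155 without number 1 and 0.496 without number 2). A read-through gene, ENSG00000244255, covers nearly all of CFB and had 102% as many counts, and C2, which shares 23 bases with CFB, had 13.2%. Counts of C3 per count of CFB were 0.0908 and 0.0901 in the EGFP-negative and 0.602 and 0.639 in the EGFP-positive libraries.

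CD55 encodes decay-accelerating factor, which takes apart the enzyme complexes that cut C3 on a cell's own surface. It was at 76.4 and 73.8 CPM in EGFP-negative libraries and 62.2 and 63.7 CPM in EGFP-positive ones, with no overlapping gene. CD55 fell by 0.25 on the log2 scale (standard error 0.07; edgeR, adjusted p = 0.0116). This call too was lost without either EGFP-negative library (adjusted p = 0.264 without number 1 and 0.111 without number 2).

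SERPING1 encodes C1 inhibitor, the serpin that stops C1r and C1s and also blocks factor XII and plasma kallikrein of the contact system. It lies on chromosome 11 at 57597387 to 57614853 of GRCh38 with no overlapping gene. It had 5 and 5 counts in the EGFP-negative and 93 and 69 in the EGFP-positive libraries, or 0.0787 and 0.0814 against 1.48 and 1.32 CPM. SERPING1 thus rose 17.1-fold to a level that was still low (log2 fold change 4.09, standard error 0.40; edgeR, adjusted p = 1.41e-07). Its EGFP-negative counts lie below the minimum of 10 used in the filter, so it entered the test through its EGFP-positive counts and had to differ.

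Further complement genes also moved both ways. Of 52 on the list, 40 were tested: 6 rose, 7 fell and 27 did not pass, with a median log2 fold change of 0.04 beside -0.0046 for all genes. Over all genes tested, 11.6% were called higher and 10.9% lower.

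Among genes of membrane regulators beside CD55, CD59 and CD46 fell. CSMD1 was called higher, but its changed counts lay within a pseudogene, as described below. CD59, which blocks the membrane attack complex, fell 1.80-fold from 622 and 629.9 CPM to 331 and 365 CPM (edgeR, adjusted p = 2.05e-07). The read-through gene ENSG00000284969 had 100% as many counts as CD59. CD46, a cofactor for the breakdown of C3b that was named after its values were seen, fell by 0.21 on the log2 scale, from 223 to 192 CPM (edgeR, adjusted p = 0.0407). CD46 did not pass with RLE scaling (adjusted p = 0.0699) or without either EGFP-negative library (0.448 and 0.347). CLU, the gene of clusterin, a secreted chaperone that binds the attack complex, fell 4.03-fold from 15.9 and 18.3 CPM to 3.79 and 4.71 CPM (edgeR, adjusted p = 1.47e-10).

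**Figure D4:**
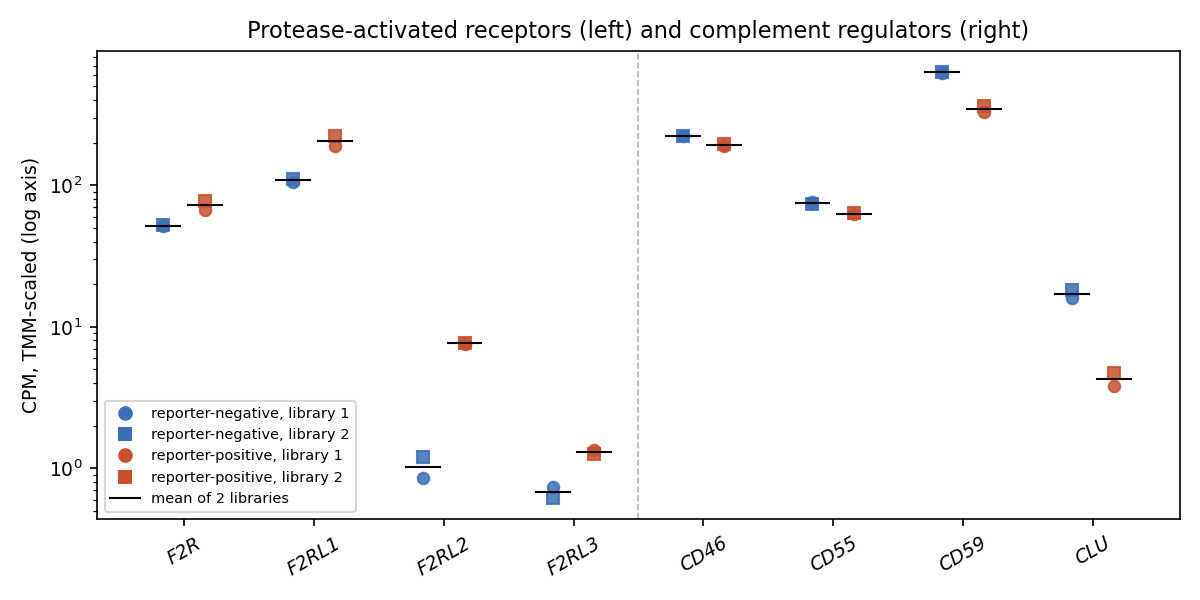
TMM-scaled CPM (log axis) of the 4 protease-activated receptor genes and of 4 complement regulator genes in the 4 libraries; short lines are means of 2. Each receptor gene is higher in both EGFP-positive libraries, and CD46, CD55, CD59 and CLU are lower. CD46 was added after its values were seen. The regulator genes SERPING1 and CSMD1, not drawn here, were called higher, but the counts that changed in CSMD1 lay within the pseudogene PAICSP4.

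Among the components, C4A and C4B, whose products C1s cuts, fell 3.15-fold and 3.28-fold, from 39.0 ± 0.827 to 12.4 ± 0.397 CPM and from 39.4 ± 1.02 to 11.99 ± 0.604 CPM (SD, n = 2). The pair is nearly identical in sequence, so their counts are not separate evidence. C4A overlaps STK19 (120% as many counts) and C4A-AS1 (21.1%), and C4B overlaps C4B-AS1 (21.1%). CFD, the protease that cuts factor B, fell 2.12-fold from 2.30 to 1.08 CPM. C2 fell by 0.34 on the log2 scale, a call lost without either EGFP-negative library (edgeR, adjusted p = 0.0608 and 0.0850) or the EGFP-positive library numbered 2 (0.113). C2 overlaps ENSG00000244255 and CFB, which had 773% and 760% as many counts, and ZBTB12 (67.9%).

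C5, from which the attack complex starts, rose 1.62-fold from 3.20 to 5.20 CPM. ITGB2, the shared chain of complement receptor integrins, rose 1.67-fold from 14.3 to 23.9 CPM, and ITGB2-AS1 had 13.6% as many counts. CR2, a receptor gene for C3 fragments, rose from 0.280 to 0.648 CPM. The CR2 call was lost with DESeq2, with total count scaling and without 3 of the 4 libraries in turn, all but the EGFP-positive library numbered 2 (adjusted p = 0.0611 to 0.285).

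CSMD1, a membrane complement regulator gene, rose 1.32-fold. The pseudogene PAICSP4 within it held 90.5% as many counts, and CSMD1 less PAICSP4 was at 5.12 and 4.54 CPM in EGFP-negative libraries and 5.00 and 4.92 CPM in EGFP-positive ones. The counts that changed in CSMD1 thus lay within PAICSP4. CALR at 1110 and 1253 CPM, C1QBP at 75.0 and 85.6 CPM and C9 at 49.8 and 43.0 CPM in the 2 lines did not pass. DAB2 had 99.3% as many counts as C9, whose values cannot be told apart from it. C1QBP overlaps RPAIN (48.4%), ENSG00000263272 (34.7%) and DHX33 (34.5%), and CALR overlaps ENSG00000267458 (15.1%). The calls of these 3 changed under other settings: without the EGFP-positive library numbered 1, CALR and C1QBP passed as higher (edgeR, adjusted p = 1.06e-04 and 4.95e-04), and C9 passed as lower without the EGFP-positive library numbered 2 (8.26e-05) and with total count scaling (0.00935). With a filter of 1 CPM, C1QBP and C9 also passed (adjusted p = 0.0382 and 0.0424). The genes of the C1q chains, C1QA, C1QB and C1QC, had 0 to 5 counts per library.

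Levels of different genes were compared as CPM per kb of exon. In the EGFP-negative line CFB stood highest at 26.5 and F3 at 25.0, and their libraries overlapped. TFPI2 (15.5), CD55 (12.7), THBD (9.58), TFPI (9.48), C1R (2.81), C3 (1.44), C1S (1.31) and SERPING1 (0.0222) followed, with only C3 and C1S overlapping among these neighbours. In the EGFP-positive line F3 led at 57.5, ahead of TFPI2 at 24.3 and CFB at 22.6, and C3 at 8.42 stood above C1R at 3.52. There CD55 (10.7) and TFPI (10.6) overlapped, and THBD was at 13.3, C1S at 2.11 and SERPING1 at 0.388. Since counts cover introns as well, the order depends on the length used: per kb of gene span, CFB stood highest in both lines, at 20.6 and 17.5 CPM per kb, and F3 was at 5.71 and 13.1.

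Neighbouring genes within 1 Mb were set beside each gene, leaving out those that overlap it. Of 24 tested neighbours of F3, none rose and 3 fell (edgeR), with a median log2 fold change of -0.06. For C3, 6 of 68 rose and 4 fell, with a median of -0.0041. Near TFPI2, 5 of 17 rose and 1 fell, with a median of 0.15, against 0.64 for TFPI2. Around SERPING1, 22 of 35 rose and none fell, and the median was 0.45, against 4.09 for SERPING1 itself. The share of higher neighbours there lay above the 11.6% of all genes. Around CFB, 37 of 129 fell and 13 rose, with a median of -0.18, against -0.23 for CFB. CD55 lay among 9 higher and 3 lower of 35 tested neighbours, with a median of 0.09. For THBD the median of 22 neighbours was -0.18, with 6 lower and none higher. Near TFPI, 3 of 10 rose and none fell, with a median of 0.16, against 0.16 for TFPI. For C1S, 8 of 79 rose and 12 fell, and for C1R 8 of 83 rose and 12 fell, each with a median of -0.04. The windows of C1S and C1R hold largely the same genes. The shares of lower neighbours around CFB, THBD, C1S, C1R and F3 lay above the 10.9% of all genes. Those of higher neighbours around CD55, TFPI2 and TFPI lay above the 11.6%. Neighbours that overlap each other share reads, so these counts are not all of separate genes.

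**Figure D5:**
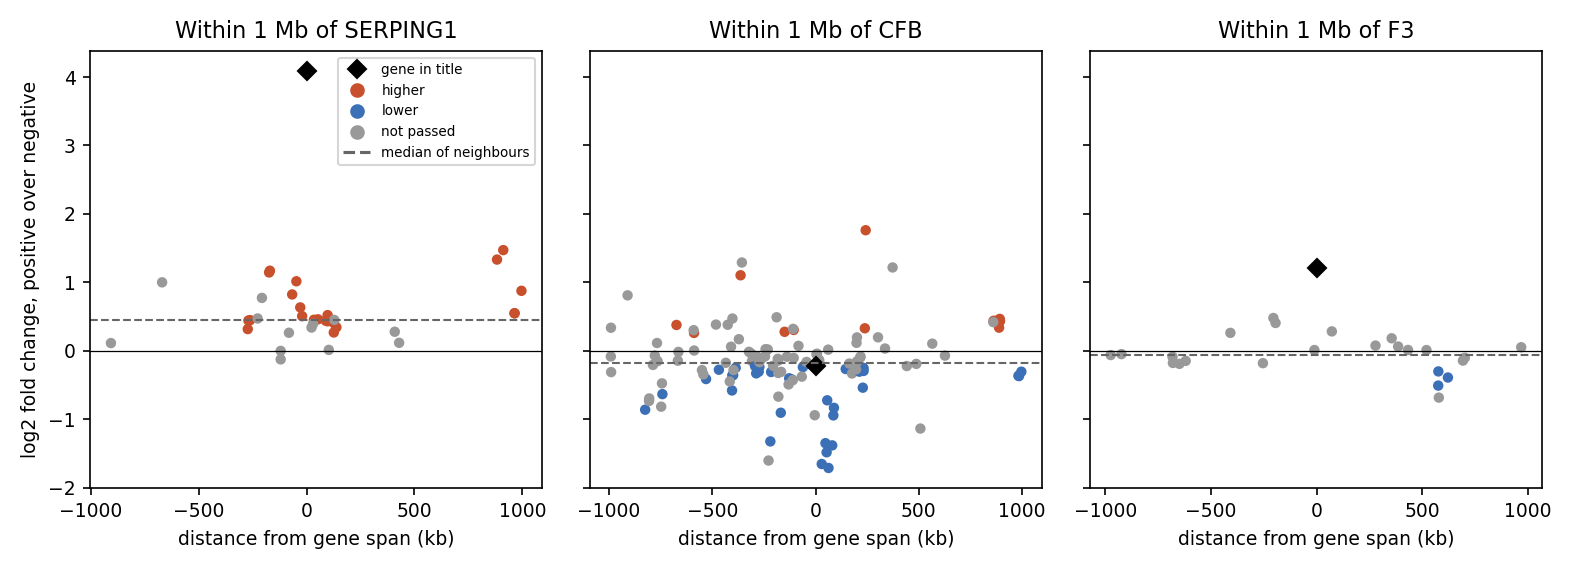
Log2 fold change of tested genes by distance (kb) from the span of SERPING1, CFB and F3, each shown as a diamond at 0, with the neighbours' median as a dashed line. SERPING1 stands above a mostly higher neighbourhood, CFB lies near its neighbours' median of -0.18, and F3 stands apart from neighbours centred near 0.

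The genes whose centred log2 CPM over the 4 libraries came closest to F3, among 9316 genes of at least 20 CPM outside the lists, were ITGA1, HMGB3, SLC43A3, ICAM1 and ENSG00000254979. Their Euclidean distances to F3 were 0.0373 to 0.0728, over 4 libraries. SLC43A3 and ENSG00000254979 overlap on chromosome 11, so reads of that pair cannot be told apart. ITGA1, a collagen-binding integrin gene, was at 184 and 179 CPM in EGFP-negative libraries and 414 and 440 CPM in EGFP-positive ones. ICAM1, a leukocyte adhesion gene, was at 95.2 and 96.5 and at 208 and 224 CPM. With 4 libraries in 2 groups, this likeness says little more than that their fold changes, 2.21 to 2.36, were close to the 2.30 of F3.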

How the data were processed

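The authors deposited raw counts of reads for each Ensembl ID, used here as they stand. Per the submitters' processing notes, HISAT2, Bowtie2, DESeq2 and hg19 were used in some role; how reads were counted, and whether by strand, is not given in the sources used here. GENCODE release 29 (GRCh38) held all 43714 IDs, its positions are printed, and 43289 had a current symbol. Of 2079 pairs in which a gene with at least 100 counts in each library lay wholly within a gene of the opposite strand, the outer gene had at least as many counts in 2079. Counts thus cover gene spans with introns, on both strands, with reads shared between overlapping genes.

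Genes were tested with edgeR 4.0.16 (R 4.3.3), using TMM, filterByExpr (counts of at least 10, total of at least 15) and the robust quasi-likelihood F test on the 2 lines, with Benjamini-Hochberg adjustment over 30952 genes. Every adjusted p is of this kind unless DESeq2 is named. Standard errors are the log2 fold change over the square root of F. The code was tested on simulated data. The alternatives tried were RLE scaling, total count scaling, DESeq2 1.42.0, limma-voom (limma 3.58.1), no filter on counts, a floor of 1 CPM in at least 2 libraries, the library number as a block, each library left out, and genes without an overlapping gene only.

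The 10 genes and the lists were chosen with earlier results of these data known. Beside the 10, the rule names up to 6 called genes per list and direction by adjusted p, the 3 genes per list with the highest CPM that did not pass, genes overlapping one of the 10 with at least 10% of its counts, and the 5 genes most like F3. F2RL3, CD46, genes overlapping others, markers, genes named for low counts and the 1 Mb window were chosen after values were seen. The 2 libraries of each line were not duplicates: a chi-square statistic of their counts came to 36.7 and 18.9 per degree of freedom. Some genes of the complement list enter its counts but are not reported here by name or drawn.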

Additional observations from a re-analysis of the deposited data

How the results depend on the processing

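Each of the 10 genes kept its direction under every alternative run, and 107 of 114 values kept their side of the threshold. F3 ranged from 1.12 to 1.25, C3 from 2.46 to 2.62 and SERPING1 from 4.00 to 4.17 on the log2 scale. Among genes without an overlapping gene, where 4 of the 10 genes remain, 3 were higher, SERPING1 among them, and 1 lower. In the same fit, 4 and 1 of 12 clotting genes and 4 and 1 of 16 complement genes were higher and lower. Of all 9888 genes tested there, fewer than in the main fit, 1111 were higher and 1093 lower. Total count scaling gave 2270 higher genes. Leaving out each library in turn gave 6 to 8 of the 10 genes higher and 0 to 2 lower, 5 to 9 and 2 to 5 clotting genes, 4 to 8 and 5 to 8 complement genes, and 2333 to 4704 and 2025 to 4457 of all genes. No call is lost from the 10 genes by leaving out an EGFP-positive library, CFB and CD55 are lost without either EGFP-negative one, and C1R without number 1 of these. The cause was not tested. PROS1, which did not pass, ranged from -0.097 to 0.067 over the fits that leave out a library, turning to 0.067 without the EGFP-positive library numbered 1. Same-numbered libraries showed no shared deviation over genes (correlation of deviations -0.026), and no label says whether the library numbers pair the samples. With the replicate block, 7 of the 10 genes were higher and 2 lower, and 4175 and 4051 of all genes; the clotting list gave 9 and 4 and the complement list 7 and 8, and C9 passed as lower (edgeR adjusted p = 0.0191). Depth limits SERPING1, F2RL3, CR2 and A2M, which had at most 93 counts in any library.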
